A study of Homo sapiens with 4 samples.

Results

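The 10 nuclear genes that copy, transcribe and stabilise mitochondrial DNA and its RNA were followed in pancreatic cancer cells treated with cannabichromene (CBC), a non-psychotropic cannabinoid of hemp. They were taken by symbol, as genes with a known role in this pathway, with earlier results of these data known. POLRMT, TFAM, TFB2M, TEFM, LRPPRC, SLIRP, TWNK, POLG, POLG2 and SSBP1 made up 10 of the 58233 gene identifiers counted. Both lines, MIA PaCa-2 and PANC-1, were established from human pancreatic tumours and are recorded as wild type in genotype. Each line gave 1 PBS library and 1 CBC library of poly(A)-selected RNA collected after 24 h, so there were 4 libraries in all. The study's methods give 35 μM CBC for MIA PaCa-2 and 30 μM for PANC-1, so the dose cannot be told apart from the line. The sample records call the controls PBS, whereas the methods dissolve CBC in acetonitrile and speak of a vehicle control.

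Mitochondrial DNA is a small circle that is transcribed in long pieces from both of its strands. The polymerase POLRMT starts at the promoters with TFAM, which bends and also packs the DNA, and with TFB2M, which opens it, and the elongation factor TEFM then keeps the polymerase on its template. LRPPRC and SLIRP bind the finished mRNAs as a pair and protect them, while the helicase TWNK, the polymerase POLG with its accessory subunit POLG2, and the single-strand binding protein SSBP1 copy the circle.

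The libraries held 21742775 to 27903667 counts, and 3 counts, the limit that a count of 0 allows, came to 0.110 to 0.135 CPM, the count scaled to a common library size. The keratins KRT8, KRT18 and KRT19, which mark epithelial cells, had 3976 to 40044 counts in every library. KRT7, another epithelial keratin, had 2 counts with PBS and 52 with CBC in MIA PaCa-2, and 49 and 58 in PANC-1. CDH1 and EPCAM, which mark epithelial junctions and surface, had 0 or 1 count in MIA PaCa-2 and 32 to 264 in PANC-1. Of 8 markers of other cell types, PTPRC, PECAM1, DCN and INS, which mark blood, endothelial, stromal and islet cells, were at 0 in all 4 libraries, PRSS1 had at most 1 count and the macrophage marker CD68 had 1 to 22. The collagen genes of stroma were high in 1 line each, with 8174 counts for COL1A2 with PBS and 2348 with CBC in MIA PaCa-2, and 3037 and 1268 for COL1A1 in PANC-1. Their part in the results was not tested. In bulk RNA, fewer cells expressing a gene and less RNA per cell cannot be told apart.

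Promoter sequences are shown for the initiation genes, since TFAM and POLRMT differed in opposite directions in MIA PaCa-2 and TFB2M had a log2 fold change near 0 in both lines. Each line holds the 250 bases before the RefSeq start on GRCh38.p14, 5′ to 3′ on the strand of the gene. Capitals mark GCGCA, any base, then GCGC, a form of the site of the activator NRF1, or CCGGAAG, a form of the site of the activator GABPA, searched on both strands.
TFAM promoter, chr10:58385160-58385409, plus strand: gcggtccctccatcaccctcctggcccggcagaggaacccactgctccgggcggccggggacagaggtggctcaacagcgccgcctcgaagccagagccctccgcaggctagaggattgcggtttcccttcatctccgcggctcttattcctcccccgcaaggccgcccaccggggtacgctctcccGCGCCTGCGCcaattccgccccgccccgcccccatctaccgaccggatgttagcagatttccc
POLRMT promoter, chr19:633538-633787, minus strand: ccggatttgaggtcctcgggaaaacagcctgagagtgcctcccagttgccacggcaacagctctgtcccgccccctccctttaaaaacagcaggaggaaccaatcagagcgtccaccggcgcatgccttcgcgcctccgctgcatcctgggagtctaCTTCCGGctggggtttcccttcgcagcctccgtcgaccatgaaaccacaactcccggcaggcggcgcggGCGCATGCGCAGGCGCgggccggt
TFB2M promoter, chr1:246566262-246566511, minus strand: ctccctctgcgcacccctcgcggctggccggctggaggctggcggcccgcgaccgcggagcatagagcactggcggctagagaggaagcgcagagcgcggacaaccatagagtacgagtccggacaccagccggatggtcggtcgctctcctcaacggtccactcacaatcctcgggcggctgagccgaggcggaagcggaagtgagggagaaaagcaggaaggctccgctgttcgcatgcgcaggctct
The TFAM window held the NRF1 letters once, 63 to 54 bases before the start. The POLRMT window held them at 2 overlapping places, 24 to 15 and 18 to 9 bases before the start, and the GABPA letters 93 to 87 bases before it. Neither set of letters was in the TFB2M window in full. That window held tcgcatgcgc and gcggaag, which differ from the NRF1 and GABPA letters in their first base, and near matches were not searched. Of 35116 promoter windows of this length in RefSeq, 5.075% held the NRF1 letters and 8.517% held the GABPA letters. Windows were given for 9 of the 10 genes, some with more than 1 start. Of these 12 windows, 3 held the NRF1 letters and 5 the GABPA letters. The NRF1 letters were in those of TFAM, POLRMT and POLG2 and the GABPA letters in those of POLRMT, POLG2, SLIRP and SSBP1. In SSBP1 they lay 244 to 238 bases before the start of a single window, and its other windows lacked them. A match of letters describes the sequence and not the binding of a factor.

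The control region of mitochondrial DNA is shown because TFAM, TFB2M, POLRMT and TEFM act there. RNA of the light-strand genes starts within this stretch and is read toward lower positions as its complement, so that runs of C beyond the start become runs of G in the RNA, and TEFM is known to help the polymerase through that G-rich part. The 297 bases before MT-TF on hg38 are written on the deposited plus strand, with runs of at least 5 C in capitals.
Control region, chrM:280-576, plus strand: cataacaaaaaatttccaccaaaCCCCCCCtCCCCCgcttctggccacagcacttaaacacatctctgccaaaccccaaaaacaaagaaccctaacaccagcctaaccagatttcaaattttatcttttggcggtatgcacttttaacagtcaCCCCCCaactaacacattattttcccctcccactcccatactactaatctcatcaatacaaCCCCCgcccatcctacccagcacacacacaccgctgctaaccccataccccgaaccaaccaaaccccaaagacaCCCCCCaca
The stretch held 5 such runs, of which the longest had 7 C and lay at positions 303 to 309, followed by 1 of 5 C at 311 to 315. These are the runs of the G-rich part, and the other 3, from position 433 upward, lie on the MT-TF side of the light-strand start, behind it.

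All 10 genes were well measured, with at least 198 and at most 9449 counts and more than 1 CPM in every library. Per kilobase of the canonical GENCODE transcript, SSBP1, SLIRP and LRPPRC were the 3 highest in all 4 libraries. In the PBS libraries SSBP1 stood at 213 CPM per kb in MIA PaCa-2 and 174 in PANC-1, and TEFM at 9.19 and 14.4 CPM per kb. The levels of the other 7 genes lay between 6.13 and 31.6 CPM per kb over the 4 libraries, and their order differed between libraries. Between the PBS libraries, the level in PANC-1 minus that in MIA PaCa-2 ran from -0.86 for TFB2M to 0.77 for TWNK on the log2 scale of CPM, and it was 0.07 for TFAM. With 1 library per line and condition, neighbours in this order could be compared with counting error only.

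**Figure D1:**
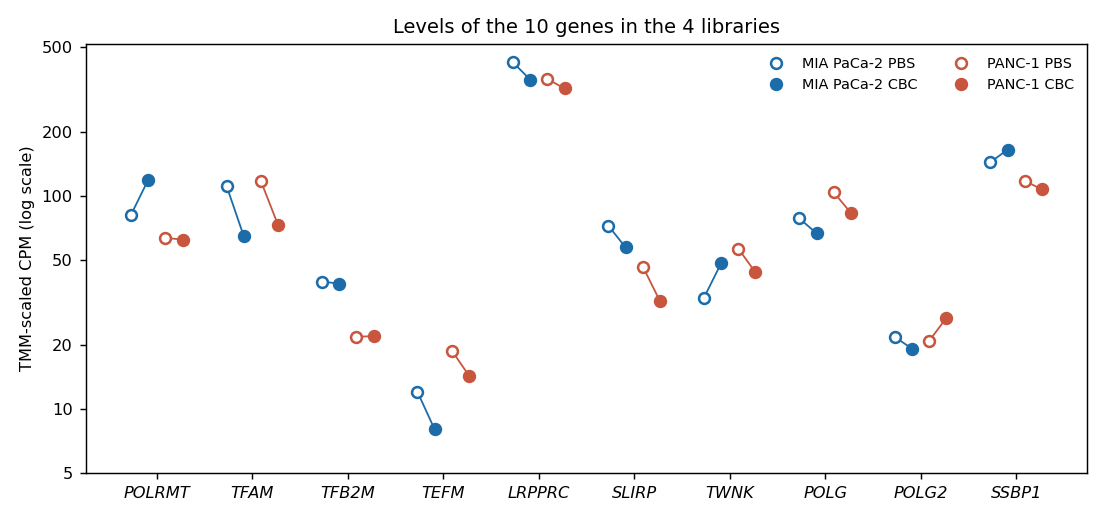
Level of each of the 10 genes in TMM-scaled CPM, on a log axis, with 1 point per library, open for PBS and filled for CBC, and a line joining the libraries of a cell line. TFAM was lower in the CBC library of both lines, whereas POLRMT and TWNK were higher with CBC in MIA PaCa-2.

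Within a line, CBC was set against PBS as a log2 fold change after TMM scaling, in edgeR with a prior count of 2. The 95% intervals given in brackets are exact binomial intervals of the count ratio and cover counting error only, since no condition had a replicate. None of the 10 genes was past a log2 fold change of 1 in size in either line, a limit passed by 20.5% of the 14001 genes tested in MIA PaCa-2 and by 14.7% of the 14091 tested in PANC-1. The median log2 fold change of the 10 genes was -0.21 in MIA PaCa-2, where that of all tested genes was -0.01, and -0.24 in PANC-1, where that of all was 0.02. Their median absolute log2 fold change was 0.30 beside 0.48 for all tested genes in MIA PaCa-2, and 0.34 beside 0.38 in PANC-1.

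TFAM (ENSG00000108064, chromosome 10 of GRCh38, 58385345 to 58399220), the factor that bends promoters and packs the mitochondrial genome, had the largest difference of the 10 genes in each line. It went from 2483 counts (112 CPM) with PBS to 1605 counts (64.9 CPM) with CBC in MIA PaCa-2. In PANC-1 it went from 2671 counts (117 CPM) to 1997 counts (73.1 CPM). Both CBC libraries were therefore below both PBS libraries, and the CBC level was 58.1% of the PBS level in MIA PaCa-2 and 62.2% in PANC-1. The log2 fold change was -0.78 [-0.87, -0.69] in MIA PaCa-2 and -0.68 [-0.77, -0.60] in PANC-1. Of all tested genes, 13.8% lay lower than TFAM in MIA PaCa-2 and 12.7% in PANC-1.

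POLRMT (ENSG00000099821, chromosome 19, 617221 to 633537), the RNA polymerase itself, went from 1817 counts (81.7 CPM) to 2951 counts (119 CPM) in MIA PaCa-2, a log2 fold change of 0.55 [0.46, 0.63]. In PANC-1 it had 1448 counts (63.7 CPM) with PBS and 1704 counts (62.4 CPM) with CBC, and the log2 fold change of -0.03 [-0.13, 0.07] turned positive with library totals in place of TMM. TFAM and POLRMT thus lay on opposite sides of 0 in MIA PaCa-2, with intervals that did not overlap. TFB2M (ENSG00000162851, chromosome 1, 246540561 to 246566261), which opens the promoter, had 881 counts (39.6 CPM) with PBS and 959 (38.8 CPM) with CBC in MIA PaCa-2. Its counts in PANC-1 were 496 (21.8 CPM) and 600 (22.0 CPM). The log2 fold changes of TFB2M were -0.03 [-0.16, 0.10] and 0.01 [-0.16, 0.18], and the sign in each line depended on the scaling.

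TEFM (ENSG00000172171, chromosome 17, 30897336 to 30906238), the elongation factor, had the lowest counts of the 10 genes. It had 267 counts (12.01 CPM) with PBS and 198 (8.005 CPM) with CBC in MIA PaCa-2, a log2 fold change of -0.58 [-0.86, -0.31]. In PANC-1 it had 427 counts (18.8 CPM) and 391 (14.3 CPM), a log2 fold change of -0.39 [-0.59, -0.19]. The interval was thus below 0 in both lines. A long noncoding RNA gene on the opposite strand, ENSG00000275185, shares 542 exonic bases with TEFM and had 2.74 CPM with PBS and 0.889 with CBC in MIA PaCa-2, and 1.98 and 0.293 CPM in PANC-1. The kit marks strand, but the sources used here do not give the strand setting used for counting, so the part of this neighbour in the counts of TEFM was not tested.

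LRPPRC (ENSG00000138095, chromosome 2, 43886224 to 43996226) and SLIRP (ENSG00000119705, chromosome 14, 77708071 to 77761104) act as a complex on mitochondrial mRNA. LRPPRC had 9449 counts (425 CPM) with PBS and 8716 (352 CPM) with CBC in MIA PaCa-2, and 8070 (355 CPM) and 8749 (320 CPM) in PANC-1. Its log2 fold changes were -0.27 [-0.31, -0.23] and -0.15 [-0.19, -0.10], so that the more deeply counted partner had small differences with narrow counting intervals. With library totals in place of TMM the values of LRPPRC were -0.21 and -0.079, outside those intervals, which do not cover the choice of scaling. SLIRP had 1611 counts (72.4 CPM) and 1419 (57.4 CPM) in MIA PaCa-2, and 1060 (46.6 CPM) and 876 (32.1 CPM) in PANC-1. Its log2 fold changes were -0.34 [-0.44, -0.23] and -0.54 [-0.67, -0.41], lower than those of LRPPRC in both lines by their point values, with intervals that overlapped in MIA PaCa-2 and did not in PANC-1. SLIRP shares 118 exonic bases with SNW1 on the opposite strand, whose log2 fold change in MIA PaCa-2 was 0.14.

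Of the replication genes, POLG was lower with CBC in both lines and the others differed between lines. POLG (ENSG00000140521, chromosome 15, 89305198 to 89334861), the catalytic subunit of the DNA polymerase, had 1746 counts (78.5 CPM) with PBS and 1651 (66.7 CPM) with CBC in MIA PaCa-2, and 2367 (104 CPM) and 2273 (83.2 CPM) in PANC-1. Its log2 fold changes were -0.23 [-0.33, -0.14] and -0.32 [-0.41, -0.24]. POLG shares 458 exonic bases, 5.53% of its exons, with the DNA repair gene FANCI on the opposite strand. FANCI differed by -1.09 on the log2 scale in MIA PaCa-2 and went from 4563 to 1893 counts in PANC-1, and its part in the counts of POLG was not tested.

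POLG2 (ENSG00000256525, chromosome 17, 64477785 to 64497054), the accessory subunit, had 484 counts (21.8 CPM) with PBS and 474 (19.2 CPM) with CBC in MIA PaCa-2, a log2 fold change of -0.18 [-0.37, 0.00]. In PANC-1 it had 475 counts (20.9 CPM) and 731 (26.8 CPM), a log2 fold change of 0.36 [0.19, 0.53] and the only one of the 10 genes with an interval above 0 in that line. POLG and POLG2, subunits of a single enzyme, therefore had intervals on opposite sides of 0 in PANC-1.

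TWNK (ENSG00000107815, chromosome 10, 100987367 to 100994403), the helicase, had 739 counts (33.2 CPM) with PBS and 1195 (48.3 CPM) with CBC in MIA PaCa-2, a log2 fold change of 0.54 [0.41, 0.67]. In PANC-1 it had 1288 counts (56.6 CPM) and 1196 (43.8 CPM), a log2 fold change of -0.37 [-0.49, -0.26]. It was the helicase, then, whose level was higher with CBC in one line and lower in the other. SSBP1 (ENSG00000106028, chromosome 7, 141738334 to 141787922), which coats single-stranded mitochondrial DNA, had the same order of signs with smaller values. It had 3205 counts (144 CPM) and 4087 (165 CPM) in MIA PaCa-2, a log2 fold change of 0.20 [0.13, 0.26], and 2682 (118 CPM) and 2935 (107 CPM) in PANC-1, a log2 fold change of -0.14 [-0.21, -0.06]. TWNK shares 149 exonic bases with MRPL43 on the opposite strand, and SSBP1 shares 13 with WEE2-AS1.

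**Figure D2:**
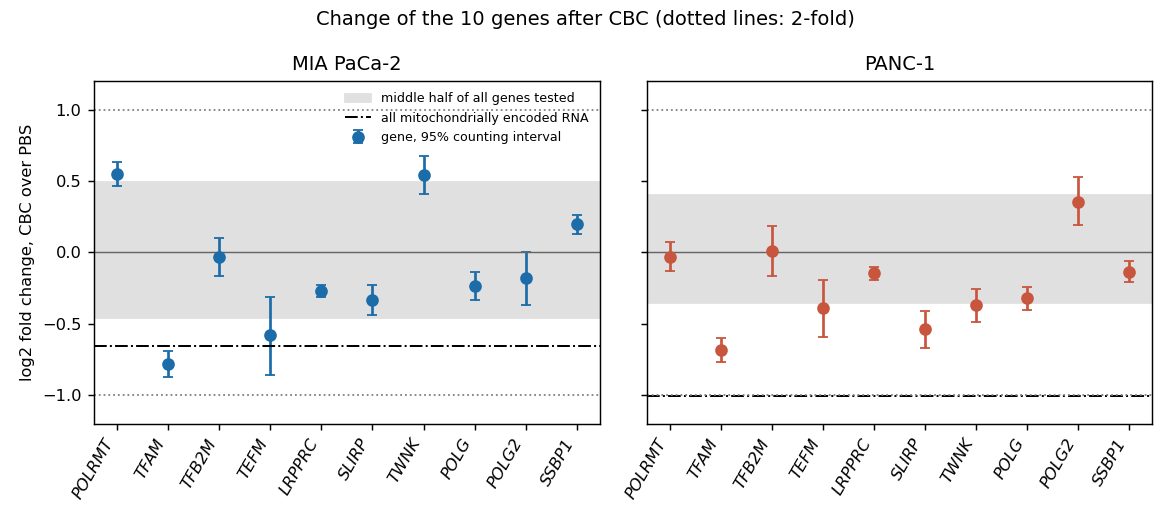
Log2 fold change of CBC against PBS for each of the 10 genes in each line, with bars for the 95% counting interval, a grey band for the interquartile range of all tested genes, dotted lines at 1 and -1, and a dash-dotted line for all mitochondrially encoded RNA. That line stands at -0.66 in MIA PaCa-2, where the interval of TFAM alone is wholly below it, and at -1.01 in PANC-1, where all 10 intervals are above it. The grey band is above that line in both cell lines as well.

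By counting error alone, 3 of the 10 genes were higher and 5 lower in MIA PaCa-2, where 37.3% of tested genes were higher and 39.1% lower by the same measure. In PANC-1 1 was higher and 7 were lower, beside 37.3% and 35.9% of tested genes. TFAM, TEFM, LRPPRC, SLIRP and POLG had intervals below 0 in both lines, and 0 of the 10 genes had intervals above 0 in both. The share of all tested genes with such intervals in both lines is not given here. The pattern can therefore not be called particular to these genes. TWNK and SSBP1 had intervals on opposite sides of 0 in the 2 lines, as did 12.7% of the 12502 genes tested in both, and POLRMT, TFB2M and POLG2 had an interval that held 0 in at least 1 line.

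Over both lines, with the cell line as a block, edgeR's quasi-likelihood test with Benjamini-Hochberg adjustment called 771 of 16381 genes (4.71%), of which 2.26% were higher and 2.45% lower, and 3428 were at an unadjusted p under 0.05. It called 0 of the 10 genes, with 1 of them, TFAM, at an unadjusted p under 0.05. The estimate for TFAM was -0.73 with a standard error of 0.21 on the log2 scale, lower in 2 of 2 lines, with an unadjusted p of 0.00792 and an adjusted p of 0.0944. DESeq2 with the same block put TFAM at -0.74 with an adjusted p of 0.0131, and edgeR without the filter on low counts put it at -0.73 with an adjusted p of 0.0372, so each of these settings called 1 of the 10 genes. Over all genes DESeq2 called 7.91% and edgeR without the filter 7.15%, so that 1 of 10 is near the background. Over all alternatives the adjusted p of TFAM ran from 0.0131 to 0.99995, the highest without the block.

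For the other genes the edgeR estimates over both lines were 0.27 ± 0.23 (SE) for POLRMT, -0.48 ± 0.30 for TEFM, -0.20 ± 0.18 for LRPPRC, -0.43 ± 0.22 for SLIRP and -0.27 ± 0.21 for POLG. Those of TWNK and POLG2 were both 0.09 ± 0.28, that of SSBP1 was 0.04 ± 0.21 and that of TFB2M was 0.00 ± 0.24. Their adjusted p-values lay between 0.317 for SLIRP and 0.995 for TFB2M in edgeR's quasi-likelihood test, and the lowest under any alternative was 0.295, again for SLIRP. With 1 residual degree of freedom before edgeR shares the spread between genes, these values do not show that the genes stayed the same.

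The share of counts on the 37 genes of the mitochondrial chromosome was lower with CBC in both lines. It went from 5.81% with PBS to 3.86% with CBC in MIA PaCa-2, a ratio of 0.663 (0.662 to 0.665, 95% counting interval). In PANC-1 it went from 4.63% to 2.42%, a ratio of 0.523 (0.521 to 0.524). On the log2 scale used for single genes, all mitochondrially encoded RNA together differed by -0.66 in MIA PaCa-2 and -1.01 in PANC-1. Set beside these values, the intervals of 8 of the 10 nuclear genes lay above that of the mitochondrial RNA in MIA PaCa-2, 1, TFAM, lay below it, and that of TEFM held it. In PANC-1 all 10 intervals lay above it. By point value, most tested genes also lay above the mitochondrial RNA in both lines. In MIA PaCa-2 13.8% of tested genes lay lower than TFAM and 20.3% lower than TEFM, and in PANC-1 7.03% lay below -1. Since RNA was poly(A)-selected, rRNA, tRNA and mRNA of mitochondria, MT-ND6 among them, were counted only as far as they passed that selection.

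**Figure D3:**
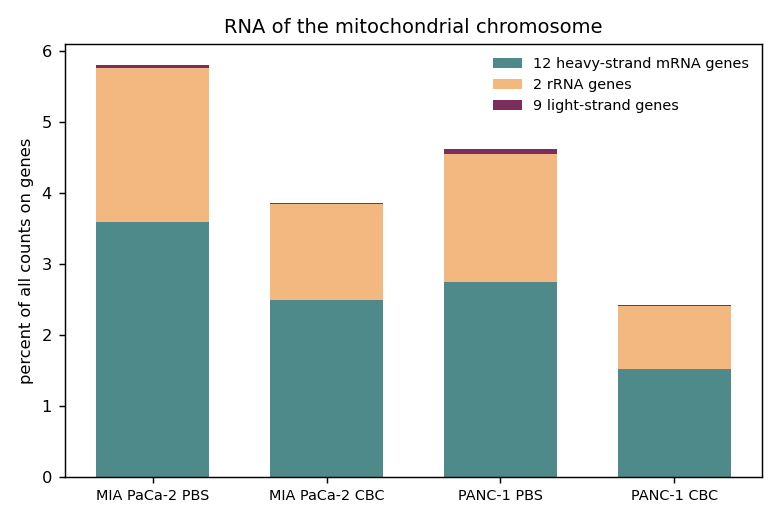
Percent of each library's counts on the 12 heavy-strand mRNA genes, the 2 rRNA genes and the 9 light-strand genes of the mitochondrial chromosome, stacked in 1 bar per library, with the 14 heavy-strand tRNA genes left out as too small to draw. The bars stand near 5.81% and 3.86% for PBS and CBC in MIA PaCa-2, and near 4.63% and 2.42% in PANC-1.

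The difference was unequal along the mitochondrial chromosome. The 12 heavy-strand mRNA genes went from 3.60% to 2.49% of counts in MIA PaCa-2 and from 2.75% to 1.51% in PANC-1. The 2 rRNA genes went from 2.16% to 1.35% and from 1.81% to 0.887%. The 9 light-strand genes, which are MT-ND6 and 8 tRNA genes, went from 0.0518% to 0.0110% and from 0.0704% to 0.0158%, ratios of 0.212 and 0.225. MT-ND6 alone had ratios of 0.196 in MIA PaCa-2 and 0.211 in PANC-1. The 8 tRNA genes together had ratios of 0.600 and 0.465, beside 0.663 and 0.523 for the whole mitochondrial chromosome. The low ratios of the light-strand genes thus came mainly from MT-ND6. As a share of mitochondrial counts, the light-strand genes were at 0.891% with PBS and 0.285% with CBC in MIA PaCa-2, and at 1.52% and 0.655% in PANC-1.

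MT-ND6, a subunit of respiratory complex I and the only mRNA of the light strand, carried most of these counts. It had 10788 counts with PBS and 2243 with CBC in MIA PaCa-2 and 16237 and 3925 in PANC-1. Its log2 fold changes were -2.42 and -2.31, and over both lines it fell by 2.36 ± 0.19 (SE) on the log2 scale with an adjusted p of 0.00370 in edgeR's quasi-likelihood test. Its neighbour MT-CYB, a subunit of complex III read from the other strand, fell by 0.80 with an adjusted p of 0.0436. The counts of MT-ND6 were 20.5% of those of MT-CYB with PBS and 5.78% with CBC in MIA PaCa-2, and 27.4% and 11.1% in PANC-1. The strand setting used for counting is not known, and how far poly(A) selection kept MT-ND6 was not tested.

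Among the 15 mRNA and rRNA genes, edgeR's quasi-likelihood test called 9 of 13 mRNAs and 2 of 2 rRNAs, all of them lower. MT-CO3, MT-CO1 and MT-CO2, the core of cytochrome oxidase, fell by 0.98, 0.95 and 0.88 on the log2 scale, with adjusted p-values of 0.0240, 0.0292 and 0.0427. MT-ATP8 and MT-ATP6 of the ATP synthase fell by 0.90 and 0.78, and MT-ND1 and MT-ND2 of complex I both fell by 0.69. MT-RNR1, the small rRNA, fell by 1.13 with an adjusted p of 0.0112, and MT-RNR2, the large rRNA, fell by 0.81 with an adjusted p of 0.0322. The ratio of MT-RNR1 to MT-RNR2 counts was 0.527 with PBS and 0.375 with CBC in MIA PaCa-2, and 0.643 and 0.581 in PANC-1. MT-ND3, MT-ND4L, MT-ND4 and MT-ND5 did not pass, with log2 values of -0.59, -0.63, -0.56 and -0.58 and adjusted p-values of 0.0883 to 0.117. Past a log2 fold change of 1 in size were 1 of 13 mRNAs and 1 of 2 rRNAs in MIA PaCa-2, and 5 of 13 and 2 of 2 in PANC-1. The shares over all tested genes were 20.5% and 14.7%. With library totals in place of TMM 7 of the 15 were called, MT-ND1, MT-ND2, MT-CO2 and MT-CYB being lost, and without the block 0 were called.

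**Figure D4:**
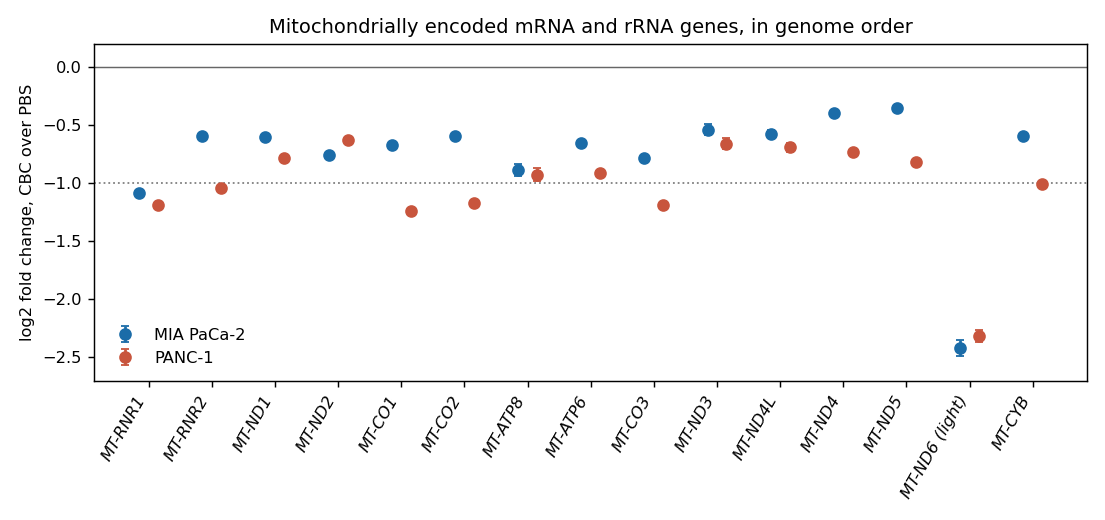
Log2 fold change of CBC against PBS for the 2 rRNA and 13 mRNA genes of the mitochondrial chromosome in genome order, with 1 point per gene and line, bars for the 95% counting interval and a dotted line at -1. All 15 genes lie below 0 in both lines, and MT-ND6 lies lowest at -2.42 and -2.31.

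Transfer RNA genes had few counts in these libraries. The 8 light-strand tRNA genes together had 472 counts with PBS and 301 with CBC in MIA PaCa-2 and 927 and 494 in PANC-1. Their ratios were 0.600 (0.517 to 0.694) and 0.465 (0.416 to 0.520). An interval below 0 was found for 4 of 8 and 6 of 8, beside 39.1% and 35.9% of all tested genes. MT-TC had 0 counts in every library and MT-TN at most 1, too few for such an interval. The 14 heavy-strand tRNA genes together had 699 and 674 counts and 547 and 530 counts, ratios of 0.907 (0.814 to 1.01) and 0.846 (0.749 to 0.955). MT-TW, named after its values were seen, went the other way from the mRNAs, from 85 to 201 counts and from 108 to 200 counts, with an adjusted p of 0.256 in edgeR's quasi-likelihood test. Annotated nuclear copies of mitochondrial genes, which can share reads with them, had 4918 to 6844 counts with PBS and 3217 to 4755 with CBC, ratios of 0.653 and 0.571. Nuclear pseudogenes of TFAM and SLIRP had 0 or 1 count in every library.

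The pathway around the 10 genes was read from 6 further lists of 74 nuclear genes, of which 73 were tested. Their median log2 fold change was -0.22 in MIA PaCa-2 and -0.13 in PANC-1, and over both lines it was -0.15, where that of all tested genes was 0.02. Past a log2 fold change of 1 in size were 1 higher and 5 lower in MIA PaCa-2, beside 11.5% and 8.97% of tested genes, and 0 higher and 3 lower in PANC-1, beside 7.71% and 7.03%. Over both lines edgeR's quasi-likelihood test called 1 higher and 2 lower, all 3 of them in the list for other replication and nucleoid genes.

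In that list of 12, DNA2, a nuclease and helicase that also works in the nucleus, had 758 counts with PBS and 386 with CBC in MIA PaCa-2, and 1475 and 605 in PANC-1. It fell over both lines with an adjusted p of 0.0320, and its log2 fold changes were -1.12 and -1.55. FEN1, the flap nuclease, which is used in nuclear replication as well, went from 1657 to 991 and from 2214 to 557 counts, with log2 fold changes of -0.89 and -2.25 and an adjusted p of 0.0463. LONP1, the matrix protease known to degrade TFAM, rose, from 5834 to 11210 counts in MIA PaCa-2 and from 2469 to 5894 in PANC-1, with log2 fold changes of 0.79 and 0.99 and an adjusted p of 0.0391. ENDOG, a mitochondrial nuclease named after its values were seen, was the other gene of the list past the limit in PANC-1, with 375 counts and 190, and had 659 and 527 in MIA PaCa-2. With DESeq2 size factors the adjusted p in edgeR's test was 0.0566 for FEN1 and 0.0515 for LONP1, and without the block 0 of the 3 were called, while DNA2 passed under all other settings tried. Library totals and TMM over all genes also put FEN1 above the threshold, at 0.0523 and 0.0552. In each line the counts of LONP1 were higher and those of TFAM lower with CBC. These are counts of RNA, no protein was measured, and a link between these genes was not tested.

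Termination factors and rRNA methyltransferases had 0 of 9 genes past the limits in any comparison, with medians of -0.24 in MIA PaCa-2 and -0.09 in PANC-1. NSUN4, an rRNA methyltransferase, had log2 fold changes of 0.39 and 0.62, MRM2 of -0.34 in both lines, and MTERF2 of -0.59 and -0.13. Of 20 genes for RNA processing and decay, 1 was past the limit, PRORP, the nuclease that cuts tRNA 5′ ends, with 287 and 140 counts in MIA PaCa-2 and 156 and 152 in PANC-1. This gene was named after its values were seen. Of all tested genes, 20.5% were past the limit in MIA PaCa-2 and 14.7% in PANC-1. ELAC2, which cuts tRNA 3′ ends, had log2 fold changes of -0.53 and -0.58 with an adjusted p of 0.174. The subunits of the RNA degradosome parted, with log2 fold changes of 0.93 and 0.18 for the helicase SUPV3L1 and of -0.39 and -0.46 for the nuclease PNPT1.

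Nucleotide supply had 2 of 10 genes past the limit in MIA PaCa-2, both lower, and 0 in PANC-1. Over all tested genes the shares past the limit were 20.5% and 14.7%, so 2 of 10 is near the background. SUCLA2, a subunit of succinyl-CoA ligase, had log2 fold changes of -1.04 and -0.47, and NME4, a nucleoside diphosphate kinase, of -1.01 and -0.46. Under other settings their values in MIA PaCa-2 reached -0.97 and -0.94, short of the limit. SLC25A36, a pyrimidine nucleotide carrier, had 0.16 and 0.91. Translation factors had 0 of 13 past the limit in either line, with PTCD3 at -0.68 and -0.45, the elongation factor TSFM at -0.80 and -0.12, and the initiation factor MTIF3 at -0.52 and 0.44.

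Among 10 regulators of mitochondrial biogenesis, PPARGC1A, a coactivator of respiratory genes, had 0, 0, 6 and 2 counts and was not tested. Its relative PPARGC1B had log2 fold changes of -1.03 and -0.45. MYC had 1.22 in MIA PaCa-2, from 3670 to 9528 counts, and -0.07 in PANC-1, from 1465 to 1678 counts. NFE2L2, a regulator of the oxidative stress response, had 0.55 and 0.37. The activators whose letters were searched in the promoters, named here for that reason after their values were seen, had log2 fold changes of -0.24 and 0.12 for NRF1 and of -0.55 and -0.20 for GABPA. Their adjusted p-values over both lines were 0.938 and 0.406 in edgeR's quasi-likelihood test.

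**Figure D5:**
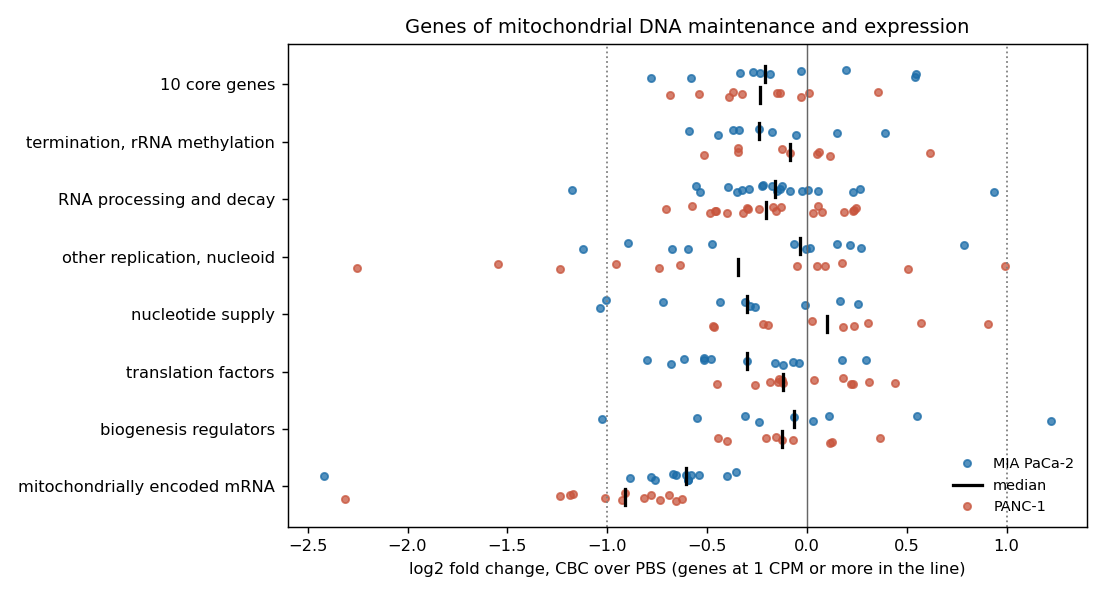
Log2 fold change of CBC against PBS for every tested gene of the 10 core genes, the 6 further nuclear lists and the 13 mitochondrially encoded mRNAs, with 1 point per gene and line, a bar at each median and dotted lines at 1 and -1. The medians of the nuclear lists lie between -0.34 and 0.10, and those of the mitochondrial mRNAs at -0.60 in MIA PaCa-2 and -0.91 in PANC-1.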

How the data were processed

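The authors sequenced poly(A)-selected RNA from each line 24 h after CBC or PBS, in 1 library per treatment. Per the labels and methods, reads were trimmed by cutadapt 2.7 and aligned by STAR to GRCh38, and HTSeq gave a count for every Ensembl gene. The aligner version and strand setting are not given in the sources used here. The deposited table holds raw counts, and a deposited signal per library, the CPM on TMM-scaled library sizes, was within a relative difference of 6.84e-09 of the values recomputed from the counts.

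Of 58233 identifiers, 57392 matched a symbol in the name table, and positions and lengths came from GENCODE release 44. The 10 members and all lists were chosen with earlier results of these data known. Named genes were the members, the mitochondrial mRNA and rRNA genes, and, of each further list, genes past a log2 fold change of 1 the same way in both lines and the 3 with the largest mean absolute change among those with a mean of at least 10 CPM. EdgeR 4.0.16, run under R 4.3.3, gave the fold changes (TMM, prior count 2, at least 1 CPM in 1 of the 2 libraries), and exact binomial 95% intervals from scipy 1.17.1 cover counting error only. No test within a line was possible with 1 library per condition.

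For the comparison of CBC with PBS over both lines, the quasi-likelihood test of edgeR was used with Benjamini-Hochberg adjustment, called at an adjusted p under 0.05, on 16381 genes kept by edgeR's filter. The line was the block, and the pairing comes from the cell line (correlation of paired deviations 0.910, equal for both lines by construction). The coefficient of biological variation was 23.0%. On simulated data with 200 of 16727 tested genes changed 4-fold, this test recovered 96.5% of them, and 3.02% of its calls were false. P-values measure the spread between lines, not between cultures of a line. Alternatives changed the filter, prior count, scaling, tool (DESeq2 1.42.0), block, deposited values and the mitochondrial gene set. No mitochondrial DNA or protein was measured in these libraries.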

Additional observations from a re-analysis of the deposited data

Results flagged for a closer look

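Among the genes named in the text by rule, each of these was marked because its change had opposite signs in the 2 lines, with a counting interval that did not reach 0 in either. By the same measure 11 of the 73 tested genes of the 6 further lists (15.1%) and 12.7% of all genes tested in both lines had opposite signs. The difference between the lines was not tested, since each line had 1 library per treatment. TWNK, the mitochondrial helicase, had 0.54 in MIA PaCa-2 and -0.37 in PANC-1, as log2 fold changes. SSBP1, which coats single-stranded mitochondrial DNA, had 0.20 in MIA PaCa-2 and -0.14 in PANC-1. With library totals in place of TMM, SSBP1 had -0.066 in PANC-1, and the counting intervals were computed with TMM only. MTIF3, the mitochondrial translation initiation factor, had -0.52 in MIA PaCa-2 and 0.44 in PANC-1.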

How the results depend on the processing

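With 2 lines paired by the block, leaving out a library leaves no residual degree of freedom, so the values within each line stand in for that check. TMM over all genes before the filter was tried after seeing the data. Of the 10 members, 0 were called over both lines, 1 (TFAM) with DESeq2 and the block and 1 without a filter on low counts. With library totals the estimates over both lines changed sign and turned to 0.056 for TFB2M, 0.029 for MTIF3 and 0.0089 for NRF1, none of them called. Of the 15 mitochondrial mRNA and rRNA genes, 11 were called, 7 with library totals and 0 without the replicate block. Of the 73 tested genes in the 6 further lists, 6 were past 2-fold in MIA PaCa-2 and 3 with library totals, and 3 were called over both lines, 1 with DESeq2 size factors, 5 without a filter and 0 without the replicate block. The ratio of the mitochondrial share was 0.686 in MIA PaCa-2 and 0.543 in PANC-1 for the 13 mRNAs alone and 0.693 and 0.551 without MT-ND6. Over all genes 771 were called, 1296 with DESeq2, 2063 of 28834 without a filter and 0 without the block, where 354 were at an unadjusted p under 0.05. Within MIA PaCa-2 1608 genes were past the limit as higher and 1256 as lower, 3249 and 2567 without a filter. In PANC-1 there were 1087 and 991, 2537 and 2310 without a filter and 680 and 710 on the deposited values. Smaller shifts also gained or lost calls, as for the 15 mitochondrial genes, with 14 called by DESeq2 and 15 without a filter, and with 7 past 2-fold in PANC-1 and 5 on library totals. Where a call changed, the cause was not tested. Depth limits TEFM most, with 198 to 427 counts per library.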
